A study of Homo sapiens with 16 samples.

Results

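The genes described here encode the membrane proteins and the scaffold of the tight junction: the claudins CLDN1, CLDN3, CLDN4, CLDN7, CLDN12 and CLDN15, occludin (OCLN), junctional adhesion molecule A (F11R) and the scaffold ZO-1 (TJP1). These 9 genes were picked by name from the 58735 genes of the count table, and all 9 passed the filter on low counts that left 17309 genes for testing. The study used the human colorectal cancer line SW620 with a short hairpin RNA either directed at the transcription factor ATF4 (shATF4) or scrambled (scramble). Each line had 3 untreated libraries, 3 libraries after 24 h and 2 libraries after 48 h with 5-fluorouracil (5-FU) at 5 µM, a chemotherapy drug that resembles uracil, so 16 libraries of messenger RNA in 6 groups were compared. A treatment tag of the labels reads 24 h for the 4 libraries titled 48 h, and the title and the series' design text were followed. A single hairpin line was set against a single control line, so loss of ATF4 cannot be told apart from other differences between the lines, and the labels do not say that replicates were separate cultures, so p-values measure the spread between these libraries, which may be technical.

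Libraries held between 14571611 and 17824188 counts. The hairpin's target checked the labels: ATF4 had 172, 169 and 179 CPM (counts scaled to the TMM-corrected library size) in shATF4 libraries without drug, against 388, 364 and 384 CPM in scramble libraries without drug, and it was below every scramble library in all 8 shATF4 libraries. Scramble untreated replicate 2 and shATF4 24 h replicate 3 stood apart from their groups, though no threshold was set for this. The first had 1.42% of counts in mitochondrial protein genes, against 0.753% and 0.766% in replicates 1 and 3. Its Pearson's r on log2 CPM with these was 0.994 and 0.993, close to the 0.994 between them. The second had an r of 0.989 and 0.991 with replicates 1 and 2, against 0.994 between those. Markers of intestinal epithelium were read for the cell type: the 10 markers of a list summed to 1452 to 2678 of the authors' FPKM (fragments scaled to exon length and to depth). Most of that sum was the keratins KRT8, KRT18 and KRT19, with 960, 721 and 575 FPKM in untreated scramble cells. EPCAM and VIL1 were also high. CDX2 (2.65 to 8.58 FPKM over the libraries) and CDH17 (0.257 to 2.03 FPKM) were low, and LGALS4 and CDX1 were near 0. Of the markers of other cell types, leukocyte PTPRC, fibroblast DCN and COL3A1 and endothelial KDR were at or near 0 in every group, while fibroblast LUM (7.33 to 14.0 FPKM over the libraries), COL1A1 (0.722 to 2.22 FPKM) and LYZ (1.53 to 18.0 FPKM) were not.

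Tight junctions seal the space between epithelial cells at their apical border. Claudins are tetraspan proteins whose extracellular loops pair across the gap between neighbouring cells and set which ions pass, and some, such as claudin 1, 3 and 4, mainly seal, and others, such as claudin 15, form pores for cations. Occludin is a tetraspan protein of another family, junctional adhesion molecule A is an immunoglobulin-type adhesion protein, and ZO-1 binds claudins, occludin and junctional adhesion molecules from the cytoplasm and ties them to actin. In the colon these proteins form the paracellular barrier, and their levels often change in colorectal cancer.

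Promoter sequences are shown for 4 claudins: CLDN7 and CLDN1, which rose with 5-FU, CLDN12, which fell, and CLDN3, which had the largest difference between the lines at 24 h among the 9 genes. Each is the 250 bases before a RefSeq start site on GRCh38.p14, 5′ to 3′ on the gene's strand, with matches to the motifs named below in capitals. RefSeq windows were found for 8 of the 9 genes, and F11R was the one without. The CLDN7 window (chr17:7262479-7262728, minus strand) is the second of 2 RefSeq windows of that gene. The others lie at chr3:190322447-190322696, minus strand, for CLDN1, at chr7:90403211-90403460, plus strand, for CLDN12, and at chr7:73770271-73770520, minus strand, for CLDN3.
CLDN7: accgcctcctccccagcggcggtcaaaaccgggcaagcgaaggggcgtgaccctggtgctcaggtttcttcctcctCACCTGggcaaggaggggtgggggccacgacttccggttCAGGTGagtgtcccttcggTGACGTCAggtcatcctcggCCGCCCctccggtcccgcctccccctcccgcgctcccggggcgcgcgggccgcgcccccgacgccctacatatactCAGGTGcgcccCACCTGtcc
CLDN1: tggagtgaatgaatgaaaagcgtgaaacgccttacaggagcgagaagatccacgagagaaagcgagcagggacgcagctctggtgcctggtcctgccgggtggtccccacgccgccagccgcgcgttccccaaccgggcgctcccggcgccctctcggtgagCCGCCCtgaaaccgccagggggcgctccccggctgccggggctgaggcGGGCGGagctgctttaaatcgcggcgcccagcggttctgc
CLDN12: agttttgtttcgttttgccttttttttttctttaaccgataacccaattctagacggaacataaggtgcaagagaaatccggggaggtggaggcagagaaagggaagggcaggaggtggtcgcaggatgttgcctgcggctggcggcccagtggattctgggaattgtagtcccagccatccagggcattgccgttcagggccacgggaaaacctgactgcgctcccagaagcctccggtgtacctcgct
CLDN3: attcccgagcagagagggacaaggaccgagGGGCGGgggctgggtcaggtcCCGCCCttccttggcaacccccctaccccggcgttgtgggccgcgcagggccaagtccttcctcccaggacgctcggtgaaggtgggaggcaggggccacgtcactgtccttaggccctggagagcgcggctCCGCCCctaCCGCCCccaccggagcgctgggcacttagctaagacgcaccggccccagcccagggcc

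Both strands were searched for 6 motifs. The CLDN7 window held 4 copies of CAGGTG, the E-box bound by SNAIL and ZEB repressors of epithelial genes, of which 17.5% of 34943 promoter windows of the same length held at least 1. It also held 1 cyclic AMP response element, TGACGTCA, found in 1.63% of windows, and 1 GC box, GGGCGG, found in 42.5%. The other RefSeq window of CLDN7 held none of the 6 motifs. CAGGTG was also found 1 time in each of both OCLN windows and 1 time in 1 of 4 TJP1 windows. GC boxes numbered 2 in the CLDN1 window and 4 in the CLDN3 window, and these held no other motif of the 6. GC boxes also numbered 1 each in the CLDN4 and CLDN15 windows, 1 and 0 in the OCLN windows, and 2, 3, 1 and 0 in the TJP1 windows. The CLDN12 window held none of the 6 motifs. An AP-1 site, TGANTCA, present in 6.59% of windows, was found 2 times in the CLDN4 window and 1 time in that of CLDN15. TGATGNAA, the composite site of ATF4 with C/EBP proteins (3.15% of windows), and AACNGGTT, a grainyhead site (1.49% of windows), were in none of the windows of the 8 genes. These matches describe letters in a window and are not shown to be bound.

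CLDN4 was the most abundant of the 9 transcripts per length in untreated cells, followed by CLDN1 and CLDN3, and CLDN7 was the least abundant. Length here is that of all annotated exons of a gene, 4702 bases for CLDN4, 3663 for CLDN1 and 1274 for CLDN3. The transcripts that these cells make may be shorter, so an order between genes depends on that length. In untreated shATF4 libraries the authors' FPKM was 30.2 ± 1.52 for CLDN4, 22.3 ± 1.60 for CLDN1 and 14.0 ± 0.687 for CLDN3 (SD, n = 3). In untreated scramble libraries it was 34.8 ± 1.97, 22.4 ± 1.95 and 20.8 ± 3.11 FPKM in the same order (SD, n = 3). CLDN1 and CLDN3 overlapped in the untreated scramble libraries and not in the untreated shATF4 libraries. F11R had 9.60 ± 0.143 FPKM in untreated shATF4 cells, level with TJP1 at 9.57 ± 0.887, and in untreated scramble cells F11R stood above TJP1, with 14.4 ± 0.971 against 9.36 ± 0.309. CLDN12, CLDN15 and OCLN followed with group means of 3.92 to 6.38 FPKM in untreated shATF4 cells and 4.47 to 7.03 FPKM in untreated scramble cells, where neighbours in this order overlapped, except that in shATF4 cells OCLN lay below CLDN15 without overlap. CLDN7 had 0.744 ± 0.415 FPKM in untreated shATF4 cells and 0.735 ± 0.188 FPKM in untreated scramble cells, below every other gene of the 9 in all libraries of each group. The same was so in the 4 groups treated with 5-FU.

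The order at the top by FPKM differed after 48 h of 5-FU. CLDN4 and CLDN1 overlapped in shATF4 cells, at 33.6 ± 1.76 and 33.4 ± 1.51 FPKM (SD, n = 2). In scramble cells CLDN1, at 40.8 ± 0.189 FPKM, stood above CLDN4, at 35.7 ± 0.892 FPKM, in both libraries. By CPM, which is not scaled to length, CLDN4 stayed above CLDN1 at 48 h in both lines. The group means were 159 against 123 CPM in shATF4 cells and 168 against 149 CPM in scramble cells. CLDN15 passed above CLDN12 in both lines at 48 h, with 8.10 ± 1.69 against 4.53 ± 0.0459 FPKM in shATF4 cells and 7.58 ± 0.451 against 5.21 ± 0.344 FPKM in scramble cells.

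The 6 claudins described here made up 66.8% to 74.3% of the summed FPKM of the 24 claudin genes in a library. Shares of this sum also depend on the exon length used for each gene. Most of the remainder was CLDN11, known as a claudin of myelin and of Sertoli cells in the testis, which took 31.4% of claudin FPKM in untreated shATF4 cells and 28.1% in untreated scramble cells, and 22.1% and 20.6% in shATF4 and scramble cells at 48 h. The claudin sum was 116, 119 and 121 FPKM in untreated, 141, 143 and 138 FPKM in 24 h and 128 and 134 FPKM in 48 h shATF4 libraries. In scramble libraries it was 129, 132 and 128 FPKM untreated, 142, 146 and 143 FPKM at 24 h and 148 and 147 FPKM at 48 h. In each line, every treated library had a larger sum than every untreated one. CLDN1 took 18.8% of the sum untreated, 24.0% at 24 h and 25.4% at 48 h in shATF4 cells, and 17.3%, 23.7% and 27.6% in the same order in scramble cells.

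**Figure D1:**
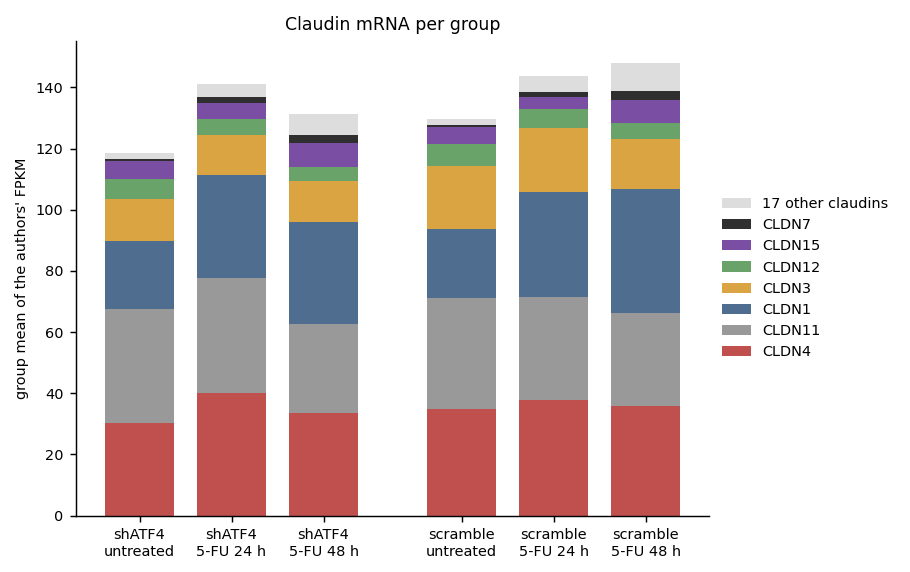
Stacked bars give the group mean of the authors' FPKM for each claudin, with the shATF4 groups left of the scramble groups and 17 weakly expressed claudins summed in light grey. CLDN4, CLDN11, CLDN1 and CLDN3 form most of each bar, and the CLDN1 segment is 22.3 FPKM in untreated and 33.4 FPKM in 48 h shATF4 cells, and 22.4 and 40.8 FPKM in the same scramble groups.

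The response to 5-FU was asked of each line at each time against its own untreated libraries. CLDN7 and CLDN1 rose in both lines at both times, CLDN12 fell in both lines at 48 h and in shATF4 cells also at 24 h, and CLDN15 was higher at 48 h in both lines. In shATF4 cells 5 of the 9 genes were called at 24 h, 4 higher and 1 lower, where 44.4% of all genes tested were called, and 5 at 48 h, again 4 higher and 1 lower, against 58.3% of all genes. In scramble cells 3 were called at 24 h, 2 higher and 1 lower, against 44.0%, and 5 at 48 h, 3 higher and 2 lower, against 60.7%. These shares are near or below those of all genes, so the number of calls does not set the 9 genes apart. A call is a p under 0.05 after Benjamini-Hochberg adjustment over the 17309 genes in the quasi-likelihood test of edgeR. All log2 changes below are from that fit, with their standard error (SE). Over all genes tested, treated and untreated libraries did not overlap for 50.1% at 24 h and 73% at 48 h in shATF4 cells, and for 52.9% and 73.1% in scramble cells. In these bulk samples, fewer cells that express a gene and less of its RNA per cell cannot be told apart.

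CLDN7 (ENSG00000181885, chromosome 17, 7259903 to 7263983, minus strand, GRCh38) encodes a claudin of the lateral membrane of intestinal epithelium. In shATF4 cells it had 0.820, 1.94 and 2.93 CPM untreated, 4.30, 4.28 and 5.76 CPM at 24 h and 5.60 and 6.39 CPM at 48 h. In scramble cells it had 1.83, 2.35 and 1.41 CPM untreated, 4.60, 3.52 and 4.85 CPM at 24 h and 7.71 and 6.99 CPM at 48 h. Every treated library of a line lay above all 3 untreated libraries of that line. The rise was 2.54-fold at 24 h and 3.17-fold at 48 h in shATF4 cells (log2 change 1.34 ± 0.28, adjusted p = 0.000567, and 1.66 ± 0.29, adjusted p = 5.81e-05). It was 2.31-fold and 3.92-fold in scramble cells (log2 change 1.21 ± 0.28, adjusted p = 0.0015, and 1.97 ± 0.29, adjusted p = 5.42e-06). These levels rest on 12 to 132 counts per library, the fewest of the 9 genes. Its exons share 38 bases with ELP5 on the opposite strand, which had 25067 counts over all libraries. The strand setting of the counting is unknown here, so reads in those bases cannot be assigned. The exons of CLDN7 also share 269 bases, 10.8% of their length, with AC003688.1 on the same strand, which had 0 counts. How reads there were assigned is not known here either.

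CLDN1 (ENSG00000163347, chromosome 3, 190305701 to 190322475, minus strand) encodes a sealing claudin that is needed for the barrier of the epidermis in mice. In shATF4 cells it had 84.2, 88.9 and 76.9 CPM untreated, 127, 123 and 128 CPM at 24 h and 127 and 119 CPM at 48 h. In scramble cells it had 82.0, 76.9 and 91.4 CPM untreated, 129, 118 and 129.96 CPM at 24 h and 150.02 and 149 CPM at 48 h. Treated and untreated libraries did not overlap in either line, and untreated libraries of both lines covered a similar range. The log2 change was 0.60 ± 0.07, adjusted p = 1.52e-06, at 24 h and 0.56 ± 0.08, adjusted p = 5.18e-06, at 48 h in shATF4 cells. In scramble cells it was 0.59 ± 0.07, adjusted p = 1.71e-06, at 24 h and 0.84 ± 0.08, adjusted p = 1.58e-08, at 48 h.

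**Figure D2:**
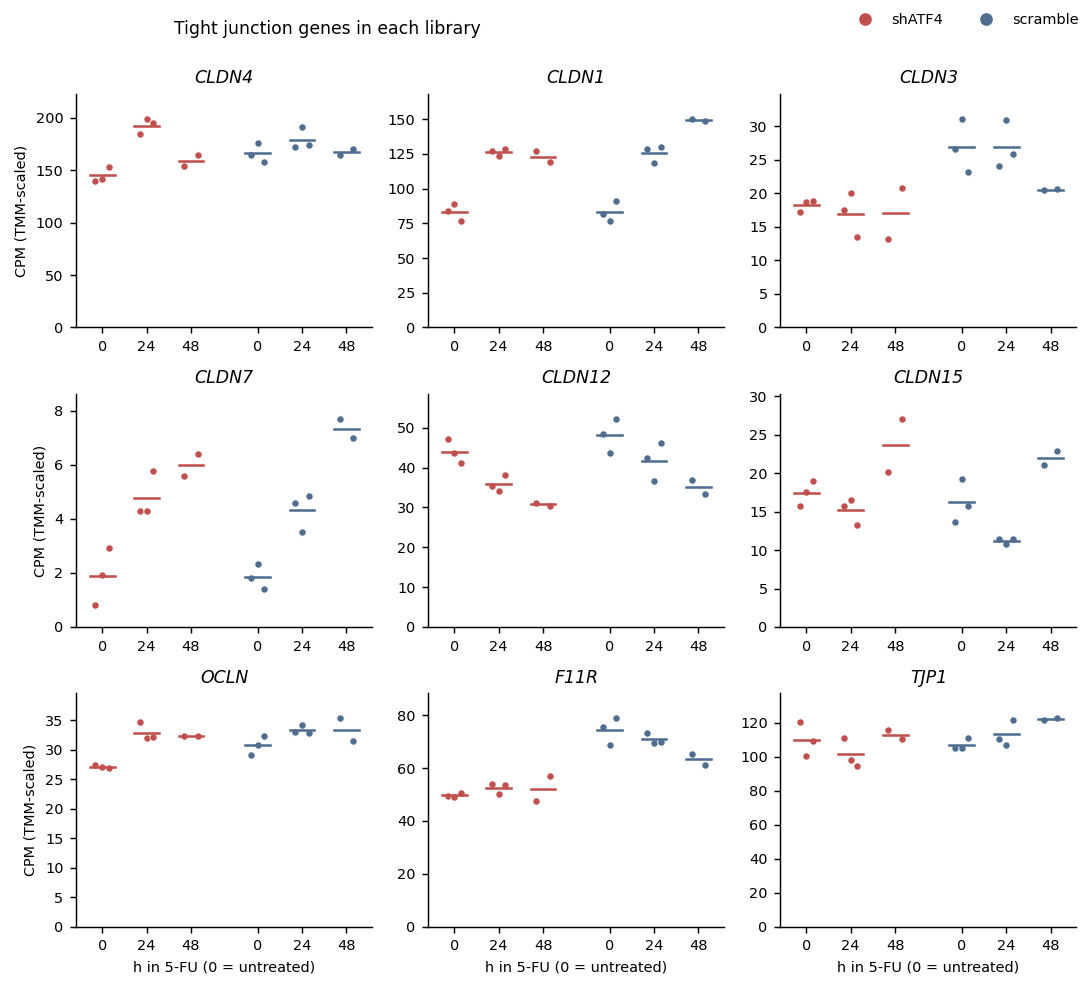
Each panel plots 1 gene, with CPM on the TMM-scaled library size from 0 upward against hours in 5-FU, red points for shATF4 libraries at the left, blue points for scramble libraries at the right, and a bar at each group mean. CLDN1 and CLDN7 lie higher in every treated library than in the untreated libraries of the same line, and the untreated F11R points of shATF4 cells, between 49.2 and 50.5 CPM, lie below those of scramble cells.

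CLDN12 (ENSG00000157224, chromosome 7, 90383721 to 90513402, plus strand) encodes an atypical claudin, tied in mice to the passage of calcium between cells. It had 47.1, 43.8 and 41.1 CPM untreated, 35.3, 34.2 and 38.2 CPM at 24 h and 31.0 and 30.5 CPM at 48 h in shATF4 cells. The scramble libraries had 48.5, 43.7 and 52.2 CPM untreated, 42.4, 36.6 and 46.2 CPM at 24 h and 36.8 and 33.5 CPM at 48 h. The 48 h libraries of each line were below all its untreated libraries, and in scramble cells the 24 h and untreated libraries overlapped. The log2 change in shATF4 cells was -0.29 ± 0.09, adjusted p = 0.0153, at 24 h and -0.52 ± 0.11, adjusted p = 0.000286, at 48 h. The 24 h call was lost without shATF4 untreated replicate 1 (adjusted p = 0.0788) and without shATF4 24 h replicate 2 (adjusted p = 0.0605). In scramble cells the change was -0.21 ± 0.09, adjusted p = 0.0793, at 24 h, which did not pass, and -0.45 ± 0.11, adjusted p = 0.000844, at 48 h. Without scramble untreated replicate 2 the 24 h change passed (adjusted p = 0.031), and likewise without scramble 24 h replicate 3 (adjusted p = 0.0356) and without both libraries that stood apart (0.015). Exons of CLDN12 overlap those of GTPBP10 on the same strand over 5.1% of their length, and how reads there were assigned is not known here.

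CLDN15 (ENSG00000106404, chromosome 7, 101232092 to 101238820, minus strand) encodes the cation pore of the intestinal epithelium. Its levels were 15.8, 17.5 and 19.0 CPM untreated, 15.8, 16.5 and 13.2 CPM at 24 h and 20.1 and 27.0 CPM at 48 h in shATF4 cells. In scramble cells they were 13.7, 19.2 and 15.7 CPM untreated, 11.4, 10.7 and 11.5 CPM at 24 h and 21.0 and 22.8 CPM at 48 h. The 3 scramble libraries at 24 h were the lowest of all 16, and all 4 libraries at 48 h were above all 12 others. The share of all genes that separate in these pooled ways was not computed. In scramble cells the log2 change was -0.53 ± 0.14, adjusted p = 0.00347, at 24 h and 0.43 ± 0.14, adjusted p = 0.0137, at 48 h. In shATF4 cells it was -0.20 ± 0.13, adjusted p = 0.238, at 24 h, not called, and 0.44 ± 0.14, adjusted p = 0.0121, at 48 h. Single libraries decided both 48 h calls. The shATF4 call was lost without untreated replicate 1 (adjusted p = 0.0535) or 48 h replicate 2 (0.355), and the scramble call without untreated replicate 1 (0.074) or 48 h replicate 2 (0.122).

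CLDN4 and CLDN3 are neighbours on chromosome 7, with 29272 bases between them, and encode sealing claudins that are receptors of the Clostridium perfringens enterotoxin. CLDN4 (ENSG00000189143, chromosome 7, 73799542 to 73832693, plus strand) had 139.96, 142 and 154 CPM untreated, 184, 199 and 195 CPM at 24 h and 154 and 165 CPM at 48 h in shATF4 cells. Scramble cells had 165, 176 and 158 CPM untreated, 172, 192 and 174 CPM at 24 h and 165 and 171 CPM at 48 h. It was higher in all treated than in all untreated shATF4 libraries, and overlapped in scramble cells. The log2 change passed at 24 h in shATF4 cells (0.41 ± 0.07, adjusted p = 4.77e-05). It was 0.14 ± 0.07, adjusted p = 0.128, in shATF4 cells at 48 h, and 0.11 ± 0.07, adjusted p = 0.194, at 24 h and 0.02 ± 0.07, adjusted p = 0.873, at 48 h in scramble cells, none of which passed. Under upper-quartile scaling the first was 0.26, adjusted p = 0.00612, and the second 0.18, adjusted p = 0.0362, and the second also passed without both libraries that stood apart (adjusted p = 0.0474). That scaling moved the median of all genes by 0.13 at 48 h in shATF4 cells and by 0.07 at 24 h in scramble cells.

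CLDN3 (ENSG00000165215, chromosome 7, 73768997 to 73770270, minus strand) had 17.2, 18.7 and 18.9 CPM untreated, 17.5, 20.04 and 13.5 CPM at 24 h and 13.2 and 20.9 CPM at 48 h in shATF4 cells. Its scramble values were 26.6, 31.1 and 23.2 CPM untreated, 24.1, 30.9 and 25.9 CPM at 24 h and 20.5 and 20.6 CPM at 48 h. The 2 scramble libraries at 48 h were below the other 6 scramble libraries, while the shATF4 groups overlapped one another. The log2 change at 48 h in scramble cells was -0.39 ± 0.17, adjusted p = 0.0543, so it missed the threshold. It passed, with the adjusted p given in parentheses, with no filter on low counts (0.00496), in a fit of the compared libraries alone (0.0237), and with 1 library left out, namely scramble untreated replicate 3 (0.0267), scramble 24 h replicate 2 (0.0481), shATF4 24 h replicate 2 (0.0468), shATF4 24 h replicate 3 (0.024), shATF4 48 h replicate 1 (0.0235) and shATF4 48 h replicate 2 (0.0233). In the authors' deposited table it was -0.39, adjusted p = 0.0384. In shATF4 cells the change was -0.11 ± 0.16, adjusted p = 0.613, at 24 h and -0.10 ± 0.18, adjusted p = 0.647, at 48 h.

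OCLN (ENSG00000197822, chromosome 5, 69492292 to 69558104, plus strand) had 27.4, 27.0 and 26.8 CPM untreated, 34.7, 31.9 and 32.1 CPM at 24 h and 32.4 and 32.3 CPM at 48 h in shATF4 cells. It had 29.1, 30.9 and 32.3 CPM untreated, 33.1, 34.2 and 32.9 CPM at 24 h and 35.3 and 31.5 CPM at 48 h in scramble cells. All 5 treated shATF4 libraries were above the 3 untreated ones, and in scramble cells the 48 h and untreated libraries overlapped. The log2 change was 0.28 ± 0.08, adjusted p = 0.0065, at 24 h and 0.26 ± 0.09, adjusted p = 0.0158, at 48 h in shATF4 cells. The 48 h call was lost without shATF4 48 h replicate 1 (adjusted p = 0.0826), without replicate 2 (0.085) and with no filter on low counts (0.138), where the 24 h value was 0.0518. The authors' deposited table did not call OCLN in shATF4 cells at either time, with adjusted p-values of 0.0727 and 0.0835. In scramble cells the change was 0.12 ± 0.08, adjusted p = 0.234, at 24 h and 0.12 ± 0.09, adjusted p = 0.241, at 48 h. Under upper-quartile scaling, which moved the median of all genes there by 0.15, the 48 h change was 0.27, adjusted p = 0.011, which passed. Its pseudogene copy OCLNP1 had 7 counts over all 16 libraries.

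F11R (ENSG00000158769, chromosome 1, 160995211 to 161021348, minus strand) had 49.5, 49.2 and 50.5 CPM untreated, 53.9, 50.2 and 53.5 CPM at 24 h and 47.6 and 56.8 CPM at 48 h in shATF4 cells. Scramble libraries had 75.4, 68.7 and 78.8 CPM untreated, 73.5, 69.5 and 69.98 CPM at 24 h and 65.5 and 61.3 CPM at 48 h. The scramble libraries at 48 h were below all 6 other scramble libraries, and the shATF4 groups overlapped. In scramble cells the log2 change was -0.07 ± 0.08, adjusted p = 0.514, at 24 h and -0.23 ± 0.09, adjusted p = 0.0254, at 48 h. That call was lost without scramble untreated replicate 1 (adjusted p = 0.0622) or replicate 3 (0.0898), without scramble 48 h replicate 2 (0.161) and in a fit of the compared libraries alone (0.0601). It was also lost under upper-quartile scaling, which moved the median of all genes there by 0.15. Under that scaling the change was -0.08, adjusted p = 0.414. In the authors' deposited table it was -0.22, adjusted p = 0.074. The shATF4 changes were 0.08 ± 0.08, adjusted p = 0.428, at 24 h and 0.07 ± 0.09, adjusted p = 0.5, at 48 h. A read-through gene, AL591806.3, shares 36.6% of the exonic bases of F11R and had 35 counts in all. How reads in the shared bases were assigned is not known here, so the low count does not show that F11R kept them.

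TJP1 (ENSG00000104067, chromosome 15, 29699367 to 29968865, minus strand) ranged from 94.6 to 123 CPM over the 16 libraries. Its log2 change was -0.12 ± 0.08, adjusted p = 0.228, at 24 h and 0.04 ± 0.09, adjusted p = 0.746, at 48 h in shATF4 cells, where the 24 h value passed without shATF4 24 h replicate 1 (0.0447), and 0.08 ± 0.08, adjusted p = 0.433, at 24 h and 0.19 ± 0.09, adjusted p = 0.0631, at 48 h in scramble cells. It was called in none of the 11 comparisons of the main fit, which gave these changes. At 48 h in scramble cells both treated libraries, with 122 and 123 CPM, were above the untreated ones, with 105, 105 and 111 CPM, and the change passed, with the adjusted p in parentheses, under median-of-ratios scaling (0.0384), under upper-quartile scaling (0.002), under DESeq2 (0.0377), in a fit of the compared libraries alone (0.0218) and without shATF4 24 h replicate 3 (0.0353). Under upper-quartile scaling, which moved the median of all genes there by 0.15, its size was 0.34 on the log2 scale.

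**Figure D3:**
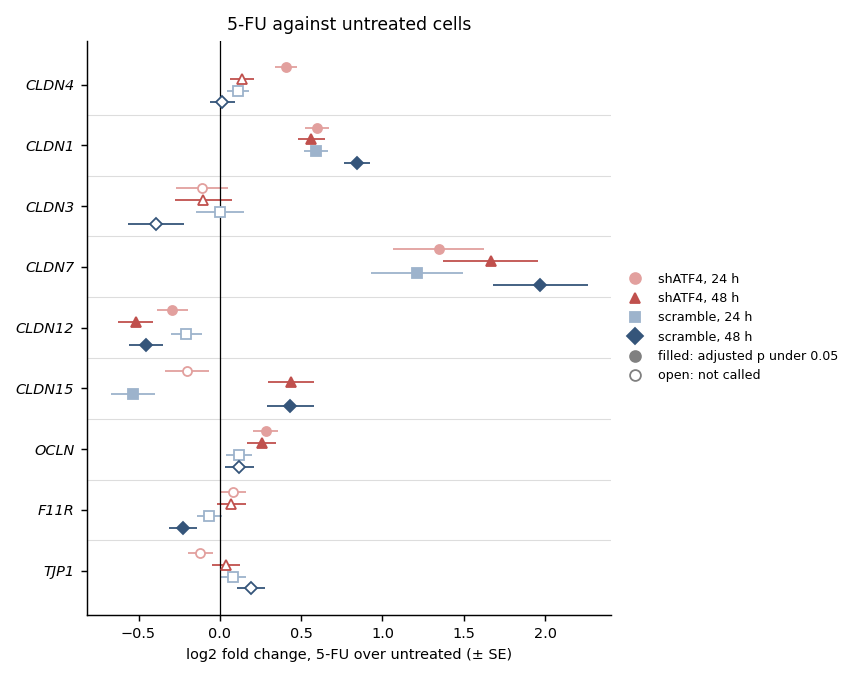
Points give the log2 fold change of 5-FU over untreated for each gene, with bars of 1 SE, in shATF4 cells (red) above scramble cells (blue), and filled symbols mark an adjusted p under 0.05. CLDN7 and CLDN1 lie right of 0 at all 4 points, with CLDN7 between 1.21 and 1.97.

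Between 24 h and 48 h of 5-FU, CLDN15 was the gene of the 9 that rose in both lines. In shATF4 cells 2 of the 9 genes were called, 1 in each direction, against 48.2% of all genes tested: CLDN15 rose (0.64 ± 0.14, adjusted p = 0.000946) and CLDN4 fell (-0.27 ± 0.08, adjusted p = 0.00501). The CLDN15 call was lost without shATF4 48 h replicate 2 (adjusted p = 0.0637) and the CLDN4 call without shATF4 48 h replicate 1 (0.0757), under upper-quartile scaling (0.0503) and in a fit of the compared libraries alone (0.0539). In scramble cells 3 were called, all higher, against 38.3%: CLDN15 (0.97 ± 0.15, adjusted p = 2.88e-05), CLDN7 (0.76 ± 0.26, adjusted p = 0.0246) and CLDN1 (0.25 ± 0.08, adjusted p = 0.0186). The CLDN7 and CLDN1 calls were each lost without scramble 24 h replicate 2, 48 h replicate 1 or 48 h replicate 2, with adjusted p-values of 0.0964, 0.149 and 0.0778 for CLDN7 and 0.103, 0.141 and 0.122 for CLDN1, which was also lost with no filter on low counts (0.0576). Some changes that were not called passed under an alternative, given with the adjusted p. In scramble cells CLDN3 (-0.39 ± 0.17, adjusted p = 0.0757) passed with no filter on low counts (0.00996), in a fit of the compared libraries alone (0.00364), without both libraries that stood apart (0.0197), and without shATF4 24 h replicate 3 (0.0341), shATF4 48 h replicate 1 (0.0342) and shATF4 48 h replicate 2 (0.0339). CLDN12 (-0.25 ± 0.10, adjusted p = 0.0661) passed in a fit of the compared libraries alone (0.0335), without both libraries that stood apart (0.0287), and without scramble 24 h replicate 2 (0.0151) and shATF4 24 h replicate 3 (0.0454), and F11R (-0.16 ± 0.09, adjusted p = 0.138) passed in a fit of the compared libraries alone (0.0439). In shATF4 cells TJP1 (0.16 ± 0.09, adjusted p = 0.146) passed under upper-quartile scaling (0.0246) and without shATF4 24 h replicate 1 (0.0338).

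The shATF4 line was compared with the scramble line in each of the 3 states. F11R was lower in shATF4 cells untreated and at 24 h, CLDN3 was lower at 24 h, and CLDN15 was higher at 24 h. Untreated, 1 of the 9 genes was called, lower, against 2.92% of all genes tested. At 24 h 3 were called, 1 higher and 2 lower, against 20.4%. The libraries of the lines did not overlap for 19.3% of all genes tested untreated, 34.8% at 24 h and 55.8% at 48 h, when each line had 2 libraries.

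F11R had 49.5, 49.2 and 50.5 CPM in untreated shATF4 libraries, against 75.4, 68.7 and 78.8 CPM in untreated scramble libraries. At 24 h it had 53.9, 50.2 and 53.5 CPM in shATF4 libraries, against 73.5, 69.5 and 69.98 CPM in scramble libraries. Every shATF4 library was below every scramble library at both states. F11R was 1.49-fold lower untreated (log2 change -0.58 ± 0.08, adjusted p = 0.000108) and 1.35-fold lower at 24 h (-0.43 ± 0.08, adjusted p = 0.000552), and both calls were kept in all 23 alternatives. At 48 h the values were 47.6 and 56.8 CPM in shATF4 and 65.5 and 61.3 CPM in scramble libraries, without overlap, as for 55.8% of all genes, and the change was -0.28 ± 0.09, adjusted p = 0.0659, which did not pass.

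CLDN3 had 17.5, 20.04 and 13.5 CPM in shATF4 libraries, against 24.1, 30.9 and 25.9 CPM in scramble libraries at 24 h. The groups did not overlap, and the change was -0.67 ± 0.15, adjusted p = 0.00452, or 1.59-fold lower. Untreated, CLDN3 had 17.2, 18.7 and 18.9 CPM in shATF4 and 26.6, 31.1 and 23.2 CPM in scramble libraries, with the groups apart (-0.56 ± 0.16, adjusted p = 0.0549), which missed the threshold. It passed, with the adjusted p in parentheses, with no filter on low counts (0.000284), under DESeq2 (0.0171), in a fit of the compared libraries alone (0.0194), and when 1 library was left out, namely scramble untreated replicate 3 (0.037), shATF4 24 h replicate 2 (0.0483), shATF4 24 h replicate 3 (0.0137), shATF4 48 h replicate 1 (0.0263) and shATF4 48 h replicate 2 (0.0264). In the authors' deposited table it was -0.55, adjusted p = 0.00446. At 48 h it had 13.2 and 20.9 CPM in shATF4 and 20.5 and 20.6 CPM in scramble libraries, which overlapped (-0.27 ± 0.19, adjusted p = 0.432).

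CLDN15 at 24 h had 15.8, 16.5 and 13.2 CPM in shATF4 libraries, against 11.4, 10.7 and 11.5 CPM in scramble libraries (0.43 ± 0.14, adjusted p = 0.0315). The groups did not overlap, but leaving out any 1 of the 3 scramble libraries, or shATF4 24 h replicate 1 or 2, ended the call, with adjusted p-values of 0.0821 to 0.114. The authors' deposited table gave 0.43, adjusted p = 0.0567. Untreated, the CLDN15 log2 difference was 0.10 ± 0.13 and at 48 h it was 0.11 ± 0.15, neither called.

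At 48 h none of the 9 genes was called by edgeR's test, where 9.45% of all genes were, while 2 had an unadjusted p under 0.05 and DESeq2 called 2. CLDN1 had 127 and 119 CPM in shATF4 and 150.02 and 149 CPM in scramble libraries, without overlap (-0.28 ± 0.09, adjusted p = 0.0515), and DESeq2 gave it an adjusted p of 0.0191 and F11R one of 0.0388. In the authors' deposited table CLDN1 was -0.27, adjusted p = 0.0113. With 1 library left out, and the adjusted p in parentheses, CLDN1 passed without scramble untreated replicate 2 (0.0344), scramble untreated replicate 3 (0.032) and shATF4 24 h replicate 3 (0.0225). F11R passed without scramble untreated replicate 2 (0.0477), shATF4 24 h replicate 3 (0.0385) and shATF4 48 h replicate 2 (0.0418). Among the other alternatives CLDN1 also passed under median-of-ratios scaling (0.0419), under upper-quartile scaling (0.0448), in a fit of the compared libraries alone (0.0135) and without both libraries that stood apart (0.00847), and F11R without both libraries that stood apart (0.0197). The CLDN1 difference was within the spread between libraries untreated (-0.00 ± 0.07, adjusted p = 1) or at 24 h (0.01 ± 0.07, adjusted p = 0.962).

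CLDN4, OCLN, CLDN7, CLDN12 and TJP1 were called in none of the 3 knockdown comparisons. Untreated CLDN4 had 139.96, 142 and 154 CPM in shATF4 and 165, 176 and 158 CPM in scramble libraries, without overlap (-0.20 ± 0.07, adjusted p = 0.15). Untreated OCLN likewise had 27.4, 27.0 and 26.8 CPM in shATF4 and 29.1, 30.9 and 32.3 CPM in scramble libraries (-0.18 ± 0.08, adjusted p = 0.292). CLDN12 was -0.13 ± 0.09 untreated, -0.22 ± 0.09 at 24 h and -0.19 ± 0.12 at 48 h on the log2 scale, and the 24 h value passed without scramble 24 h replicate 2 (adjusted p = 0.0312) and without both libraries that stood apart (0.0423). TJP1 was -0.16 ± 0.08 at 24 h and passed without shATF4 24 h replicate 1 (adjusted p = 0.0316). CLDN7, with few counts, had the widest error: 0.01 ± 0.32 untreated, 0.15 ± 0.25 at 24 h and -0.29 ± 0.28 at 48 h.

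**Figure D4:**
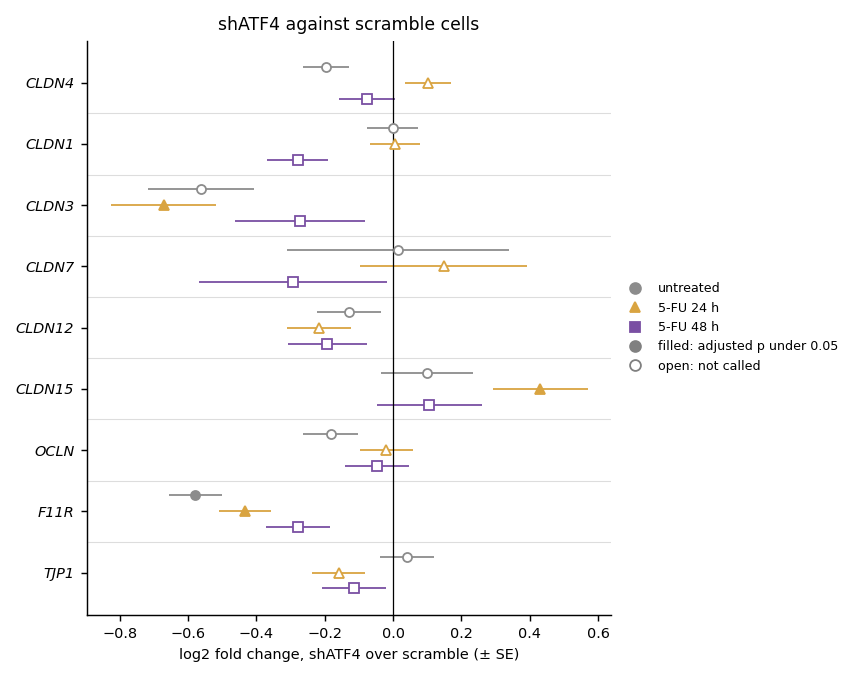
Points give the log2 fold change of shATF4 over scramble for each gene, with bars of 1 SE, untreated (grey circles), at 24 h (orange triangles) and at 48 h (purple squares) of 5-FU, and filled symbols mark an adjusted p under 0.05. F11R and CLDN3 lie left of 0 in all 3 states, F11R at -0.58, -0.43 and -0.28 and CLDN3 at -0.56, -0.67 and -0.27.

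A difference between the lines in their 5-FU response was tested as an interaction, the shATF4 change minus the scramble change. None of the 9 genes was called at 24 h or at 48 h by edgeR's test, where 2.13% and 2.74% of all genes were. At 24 h 1 had an unadjusted p under 0.05 and DESeq2 called 0, and at 48 h 2 had one and DESeq2 called 0. The nearest at 24 h was CLDN4, whose change was 0.41 ± 0.07 in shATF4 and 0.11 ± 0.07 in scramble cells, a difference of 0.30 ± 0.09, adjusted p = 0.0969. At 48 h the log2 change of F11R was 0.07 ± 0.09 in shATF4 and -0.23 ± 0.09 in scramble cells, a difference of 0.30 ± 0.12, adjusted p = 0.221. That of CLDN1 was 0.56 ± 0.08 in shATF4 and 0.84 ± 0.08 in scramble cells, a difference of -0.28 ± 0.12, adjusted p = 0.234. For CLDN15 at 24 h, called in scramble cells and not in shATF4 cells, the difference was 0.33 ± 0.19, adjusted p = 0.374, and for OCLN, called in shATF4 cells and not in scramble cells at that time, it was 0.16 ± 0.11, adjusted p = 0.465. The CLDN7 differences were 0.13 ± 0.41 at 24 h and -0.31 ± 0.43 at 48 h.

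Some of the 9 genes varied together over the 16 libraries, which share their groups and treatments. On log2 CPM, Pearson's r was 0.85 between CLDN1 and CLDN7, 0.78 between CLDN3 and F11R, 0.77 between CLDN1 and OCLN, and -0.77 between CLDN7 and CLDN12. The neighbours CLDN3 and CLDN4 had an r of 0.22. Of 12349 other protein-coding genes averaging 1 CPM or more, those most like CLDN7 were WFDC3 (r = 0.96), EXO5 (r = 0.96), NOL3 (r = 0.95) and ERICH2 (r = 0.95), and 211 of them had an r above 0.9. Those most like CLDN3 were IGFBP2 (r = 0.87), CAPN1 (r = 0.86), USP30 (r = 0.86) and TERT (r = 0.86), and 0 exceeded 0.9. These values describe the 16 libraries and carry no test.

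Other genes of the junction were read at 48 h of 5-FU, when 58.3% of genes were called in shATF4 cells and 60.7% in scramble cells, with medians over all genes of 0.03 and 0.03 on the log2 scale. Of 18 other claudins 6 passed the filter on low counts, and a gene can pass it through the group in which it is high, so the 6 do not stand for the 18. In shATF4 cells 5 of the 6 were higher and 1 was lower, and in scramble cells likewise 5 and 1. CLDN16, the magnesium-related claudin of the kidney, had 4.24 CPM treated and 0.236 CPM untreated in shATF4 cells (4.15 ± 0.47, adjusted p = 1.95e-07) and 4.54 CPM treated and 0.339 CPM untreated in scramble cells (3.72 ± 0.44, adjusted p = 2.74e-07). Its kidney partner CLDN19 rose in shATF4 cells (1.83 ± 0.35, adjusted p = 0.000119) and in scramble cells (1.69 ± 0.31, adjusted p = 9.37e-05). CLDN23 rose in shATF4 cells (1.60 ± 0.27, adjusted p = 2.65e-05) and in scramble cells (1.79 ± 0.27, adjusted p = 6.19e-06). The claudin that fell was CLDN11, named here after its values were seen, with -0.38 ± 0.08, adjusted p = 0.000218, in shATF4 and -0.28 ± 0.08, adjusted p = 0.00282, in scramble cells. The scramble call of CLDN11 was lost under upper-quartile scaling (adjusted p = 0.117).

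Of 12 other tight junction membrane proteins 11 were tested. In shATF4 cells 4 were higher and 1 lower (median log2 change 0.22), and in scramble cells 5 were higher and 0 lower (median 0.17). ESAM, an adhesion molecule of endothelial junctions, had 5.15 CPM treated and 0.736 CPM untreated in shATF4 cells (2.78 ± 0.35, adjusted p = 9.02e-07) and 8.49 CPM treated and 0.510 CPM untreated in scramble cells (4.02 ± 0.36, adjusted p = 4.88e-09). MARVELD3, a relative of occludin, rose in both lines (0.90 ± 0.10, adjusted p = 1.21e-07 in shATF4 cells, and 0.62 ± 0.10, adjusted p = 1.67e-05 in scramble cells), as did LSR, the angulin of tricellular junctions (0.62 ± 0.11, adjusted p = 8.09e-05, and 0.48 ± 0.11, adjusted p = 0.00107, in the same order). JAM3, a relative of F11R, fell in shATF4 cells (-0.95 ± 0.21, adjusted p = 0.000645), and its change in scramble cells was -0.43 ± 0.20, adjusted p = 0.0726, a difference of -0.52 ± 0.29, adjusted p = 0.42 between the lines.

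Of 27 plaque and polarity proteins 24 were tested, with 7 higher and 9 lower in shATF4 cells (median -0.17) and 7 higher and 7 lower in scramble cells (median 0.01). CGNL1 (paracingulin), a relative of cingulin in the junctional plaque, fell in shATF4 cells (-1.60 ± 0.08, adjusted p = 1.67e-12) and in scramble cells (-1.49 ± 0.08, adjusted p = 3.03e-12). AMOTL2, an angiomotin family scaffold of the Hippo pathway, rose in both lines (1.72 ± 0.13, adjusted p = 5.39e-10 in shATF4 cells, and 2.10 ± 0.13, adjusted p = 1.86e-11 in scramble cells). TJP3, which encodes ZO-3, a relative of ZO-1, rose in both (0.62 ± 0.18, adjusted p = 0.00619, and 1.05 ± 0.18, adjusted p = 2.54e-05, in the same order), and its shATF4 call was lost without shATF4 48 h replicate 2 (adjusted p = 0.147).

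Adherens junctions, which lie just below tight junctions, were read from 14 genes. In shATF4 cells 8 were higher and 5 lower (median 0.30), and in scramble cells 7 and 5 (median 0.30). P-cadherin (CDH3) rose in both lines, by 2.11 ± 0.31, adjusted p = 7.17e-06 in shATF4 and 1.44 ± 0.28, adjusted p = 0.000185 in scramble cells. The catenin CTNNB1 fell in both, with 489.9 CPM in treated and 942 CPM in untreated shATF4 cells (-0.94 ± 0.06, adjusted p = 7.17e-11), and 446 CPM in treated and 952 CPM in untreated scramble cells (-1.09 ± 0.06, adjusted p = 5.88e-12). Of 13 desmosome genes 9 were tested, with 2 higher and 4 lower in shATF4 cells (median -0.07) and 2 and 4 in scramble cells (median -0.06). Plakophilin 1 (PKP1) rose in both lines (3.27 ± 0.37, adjusted p = 1.79e-07 in shATF4 cells, and 2.66 ± 0.30, adjusted p = 1.87e-07 in scramble cells) and desmocollin 2 (DSC2) fell in both (-1.07 ± 0.25, adjusted p = 0.000827, and -1.50 ± 0.23, adjusted p = 1.27e-05, in the same order). Plakoglobin (JUP), shared by desmosomes and adherens junctions, rose in shATF4 cells (0.58 ± 0.12, adjusted p = 0.000224) and in scramble cells (0.91 ± 0.12, adjusted p = 9.63e-07).

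Of 15 regulators of junctional actin and myosin, 1 was higher and 10 were lower in shATF4 cells (median -0.33), and 2 were higher and 11 lower in scramble cells (median -0.34). The myosin light chain MYL9 rose in both lines (1.71 ± 0.13, adjusted p = 7.32e-10 in shATF4 cells, and 1.44 ± 0.13, adjusted p = 4.94e-09 in scramble cells). The non-muscle myosin heavy chain MYH14 fell in both (-0.98 ± 0.19, adjusted p = 0.000118, and -0.73 ± 0.18, adjusted p = 0.00124, in the same order). Myosin light chain kinase (MYLK) rose in scramble cells (1.36 ± 0.25, adjusted p = 9.49e-05), and its change in shATF4 cells was 0.61 ± 0.26, adjusted p = 0.05, just short of the threshold, which it passed under 6 alternatives with adjusted p-values down to 0.0201. The difference between the lines was -0.75 ± 0.37, adjusted p = 0.334.

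**Figure D5:**
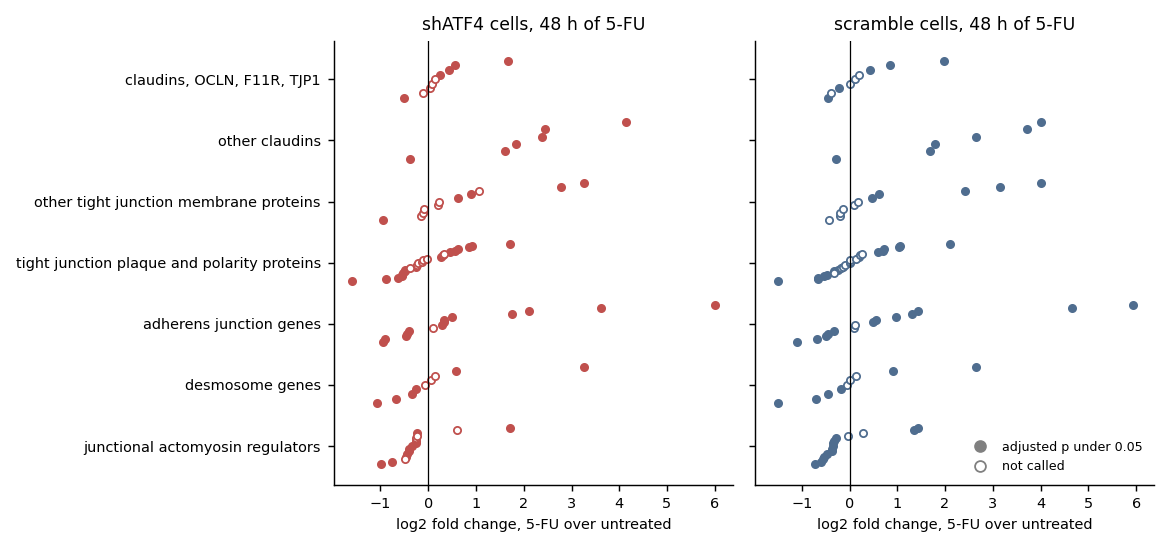
Each point is 1 gene tested, placed by its log2 fold change after 48 h of 5-FU over untreated in shATF4 cells (left) and scramble cells (right), with 1 row per list and filled points for an adjusted p under 0.05. The top row holds the 9 genes described here, which spread from -0.52 to 1.66 in shATF4 and from -0.45 to 1.97 in scramble cells.

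In untreated cells 2.92% of all genes tested differed between the lines. Of the junction lists, 1 of 11 other tight junction membrane proteins, 2 of 14 adherens junction genes and 1 of 15 actin and myosin regulators tested were called. Of 6 other claudins, 24 plaque and polarity proteins and 9 desmosome genes tested, 0 were called. The adhesion molecule NECTIN1 had 231 CPM in shATF4 and 160.2 CPM in scramble cells (0.53 ± 0.09, adjusted p = 0.00165). The angulin ILDR2 (-0.40 ± 0.11, adjusted p = 0.0476) and the actin linker ezrin (EZR, -0.20 ± 0.05, adjusted p = 0.0458) were lower in shATF4 cells by calls that did not hold when most single libraries were left out, with adjusted p-values up to 0.213 and 0.175, both without shATF4 untreated replicate 2. The interaction at 48 h called 3 of the 79 junction genes tested in these lists (3.80%), a share near the 2.74% of all genes. They are named after their values were seen, and each had a lower change in shATF4 than in scramble cells: E-cadherin (CDH1, -0.69 ± 0.10, adjusted p = 0.000573), the scaffold MAGI1 (-0.46 ± 0.10, adjusted p = 0.0177) and the polarity protein PARD3 (-0.50 ± 0.12, adjusted p = 0.0241). Such a difference between the lines does not say whether the gene fell in either line. The CDH1 call was kept in all 23 alternatives. That of MAGI1 was lost when any 1 of 4 libraries was left out, with an adjusted p up to 0.137 (without scramble 48 h replicate 1), and that of PARD3 when any 1 of 7 was, with an adjusted p up to 0.135 (without the same library) and one of 0.0871 with no filter on low counts.

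Markers of cell types moved with 5-FU as well, and their part in the results above was not tested. Of 10 intestinal epithelium markers 8 were tested, and in each line 2 were higher and 6 lower at 48 h. Of all genes tested, 29.6% were higher and 28.7% lower at 48 h in shATF4 cells, and 30.6% and 30.0% in scramble cells. The same shares stand beside the counts of the other marker lists below. The sum of the 10 was 1452 to 1563 FPKM at 48 h and 2472 to 2589 FPKM untreated in shATF4 libraries, and 1672 to 1702 and 2476 to 2678 FPKM in scramble libraries. Most of each sum was KRT8, KRT18 and KRT19. Keratin 8 (KRT8) had log2 changes of -0.81 ± 0.08, adjusted p = 1.3e-08 in shATF4 and -0.80 ± 0.08, adjusted p = 1.41e-08 in scramble cells, and villin (VIL1) of -1.04 ± 0.07, adjusted p = 6.97e-11 in shATF4 and -1.48 ± 0.07, adjusted p = 3.49e-13 in scramble cells. CDH17 rose by 1.63 ± 0.20, adjusted p = 6.37e-07 in shATF4 and 2.04 ± 0.22, adjusted p = 9.91e-08 in scramble cells, and CDX2 by 1.30 ± 0.13, adjusted p = 4.43e-08 in shATF4 and 0.47 ± 0.14, adjusted p = 0.00673 in scramble cells. The interaction at 48 h called 3 of these 8, where 2.74% of all genes were called. Over all lists of cell markers and the transcription factors read further below, it called 4 of 29 genes tested (13.8%). The 3 are named for the interaction after their values were seen: CDX2 (0.83 ± 0.20, adjusted p = 0.0223), VIL1 (0.44 ± 0.09, adjusted p = 0.0144) and keratin 19 (KRT19, -0.40 ± 0.11, adjusted p = 0.0469). Each call was lost when some single libraries were left out, with adjusted p-values up to 0.105, 0.0872 and 0.212, in the same order. The 7 fibroblast markers summed to 14.6 to 16.4 FPKM at 48 h and 9.50 to 10.7 FPKM untreated in shATF4 libraries, and 12.5 to 13.5 and 8.85 to 11.7 FPKM in scramble libraries, most of it LUM, while DCN, COL3A1, COL1A2 and PDGFRA were at or near 0. Of the 3 tested, 3 were higher in shATF4 and 2 in scramble cells and 0 were lower in either. PDGFRB rose by 2.30 ± 0.23, adjusted p = 3.27e-08 in shATF4 and 2.41 ± 0.21, adjusted p = 2.53e-09 in scramble cells. COL1A1 rose by 0.80 ± 0.19, adjusted p = 0.000959 in shATF4 and 0.42 ± 0.18, adjusted p = 0.0481 in scramble cells, and its scramble call was lost when any 1 of 10 libraries was left out, with an adjusted p up to 0.275. LUM, named after its values were seen, rose in shATF4 cells (0.54 ± 0.13, adjusted p = 0.00186), and its change in scramble cells was 0.24 ± 0.14, adjusted p = 0.148, which passed under upper-quartile scaling (adjusted p = 0.0194) and without scramble untreated replicate 3 (0.0131), and the difference between the lines was 0.30 ± 0.19, adjusted p = 0.506. The 6 endothelial markers summed to 0.769 to 0.920 FPKM at 48 h and 0.411 to 0.570 FPKM untreated in shATF4 libraries, and 1.38 to 1.57 and 0.418 to 0.454 FPKM in scramble libraries. Of the 2 tested, VWF rose by 1.14 ± 0.28, adjusted p = 0.00171 in shATF4 and 1.96 ± 0.26, adjusted p = 1.36e-06 in scramble cells, and PECAM1 rose in scramble cells (1.36 ± 0.25, adjusted p = 8.04e-05) and had a change of 0.42 ± 0.25, adjusted p = 0.161 in shATF4 cells (difference between the lines -0.94 ± 0.36, adjusted p = 0.189), while KDR and CLEC14A were at or near 0. The 7 leukocyte markers summed to 13.4 to 13.5 FPKM at 48 h and 2.18 to 2.88 FPKM untreated in shATF4 libraries, and 16.9 to 18.8 and 1.82 to 2.38 FPKM in scramble libraries, nearly all of it LYZ, a secreted lysozyme that Paneth cells also make, which rose in both lines (2.58 ± 0.18, adjusted p = 1.21e-10 in shATF4, and 3.23 ± 0.18, adjusted p = 3.22e-12 in scramble cells), with PTPRC at or near 0.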

How the data were processed

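Messenger RNA was sequenced in 16 SW620 libraries. The submitters' processing notes name featureCounts 1.5.0-p3 and the build GRCh38 (hg38), and the authors deposited raw, whole-number counts per gene. The authors also deposited FPKM values per library, used here for levels between genes, and, per the file headers, a gene length, and for 7 comparisons a log2 fold change with an adjusted p-value, from a test that no source used here names. The authors' FPKM equalled the count divided by gene length and by the total count times a composition factor between 0.998 and 1.02 times the TMM factor computed here.

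Counts were tested with edgeR 4.0.16 under R 4.3.3: filterByExpr left 17309 of 58735 genes, holding 99.9% of counts, library sizes were scaled by TMM, and 6 group means were fitted to all 16 libraries (10 residual degrees of freedom, common biological coefficient of variation 0.0847). Standard errors were derived from the F statistic. Benjamini-Hochberg adjustment ran over all genes tested in each of 11 comparisons. Correlations used log2(CPM + 0.5). Counts carry no molecular identifiers. Alternatives were DESeq2 1.42.0, other scalings, no filter, a replicate block, only the libraries compared and leaving out libraries. On simulated data for the untreated knockdown comparison over 17309 genes, the test called 60% of 100 genes changed by 0.5 and 84% of 100 changed by 1 on the log2 scale, with 3 false calls of 147.

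The 9 genes, the other lists and the motifs were chosen with earlier results of these data known. From each other list the text names up to 3 called genes with the largest change at 48 h in scramble cells, up to 2 at 48 h in shATF4 cells and up to 2 in untreated knockdown, with a mean of at least 1 CPM; some genes that this rule names are not reported here. Genes were matched for likeness to the gene of the 9 with the largest SD of group means among those higher, and among those lower, at 48 h in scramble cells, giving CLDN7 and CLDN3, with the 4 genes of highest r for each.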

Additional observations from a re-analysis of the deposited data

How the results depend on the processing

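Over 23 alternatives the 99 changes of the 9 genes gave 2277 values: none turned direction among called values, 2182 kept their side of the threshold, 31 lost a call and 64 gained one, and 16 of 27 calls were kept in all. With no filter on low counts, the count called of the 9 was 2 in place of 1 for knockdown untreated. Under DESeq2, the count called of the 9 was 2 in place of 1 for knockdown untreated and 2 in place of 0 for knockdown at 48 h. With the replicate number as a block, the count called of the 9 was 2 in place of 1 for knockdown untreated and 1 in place of 0 for knockdown at 48 h. In a fit of the compared libraries alone, the count called of the 9 was 2 in place of 1 for knockdown untreated, 1 in place of 0 for knockdown at 48 h, 1 in place of 2 for 48 h against 24 h in shATF4 cells and 6 in place of 3 for 48 h against 24 h in scramble cells. Under median-of-ratios scaling, the count called of the 9 was 1 in place of 0 for knockdown at 48 h. Under upper-quartile scaling, the count called of the 9 was 1 in place of 0 for knockdown at 48 h. Without the 2 libraries that stood apart, the count called of the 9 was 2 in place of 0 for knockdown at 48 h, 5 in place of 3 for 24 h in scramble cells and 5 in place of 3 for 48 h against 24 h in scramble cells. Without the 2 libraries that stood apart, the genes called of all tested were 891 in place of 506 for knockdown untreated, 3021 in place of 1636 for knockdown at 48 h, 647 in place of 369 for interaction at 24 h and 1204 in place of 475 for interaction at 48 h. In a fit of the compared libraries alone, the genes called of all tested were 2189 in place of 3533 for knockdown at 24 h, 2748 in place of 1636 for knockdown at 48 h and 173 in place of 369 for interaction at 24 h. With no filter on low counts, the genes called of all tested were 798 in place of 369 for interaction at 24 h. Under DESeq2, the genes called of all tested were 696 in place of 369 for interaction at 24 h. With the replicate number as a block, the genes called of all tested were 644 in place of 369 for interaction at 24 h. With 1 library left out the count of the 9 called ran from 1 to 2 for knockdown untreated, 2 to 3 for knockdown at 24 h, 0 to 2 for knockdown at 48 h, 4 to 6 for 24 h in shATF4 cells, 3 to 5 for 48 h in shATF4 cells, 3 to 4 for 24 h in scramble cells, 3 to 7 for 48 h in scramble cells, 1 to 3 for 48 h against 24 h in shATF4 cells, 1 to 5 for 48 h against 24 h in scramble cells, 0 to 0 for interaction at 24 h and 0 to 0 for interaction at 48 h. The same ranges over all genes were 277 to 774 for knockdown untreated, 2067 to 3885 for knockdown at 24 h, 600 to 2463 for knockdown at 48 h, 6598 to 7859 for 24 h in shATF4 cells, 8485 to 10628 for 48 h in shATF4 cells, 6507 to 8261 for 24 h in scramble cells, 8834 to 11000 for 48 h in scramble cells, 6289 to 8587 for 48 h against 24 h in shATF4 cells, 4363 to 7485 for 48 h against 24 h in scramble cells, 65 to 1188 for interaction at 24 h and 136 to 991 for interaction at 48 h. Upper-quartile scaling moved the median of all genes at 48 h by 0.13 in shATF4 and 0.15 in scramble cells and the share of higher genes among those called to 61.2% and 61.4%, in place of 50.7% and 50.5%. Calls that single genes gained or lost under this scaling come with that shift of all genes. Whether the replicate numbers pair libraries was not settled. Over 36 same-number pairs from different groups the correlation of deviations ran from -0.15 to 0.19, with a median of 0.04, and 8 exceeded 0.1. Over 70 pairs with different numbers it ran from -0.19 to 0.16, with a median of -0.02, and 6 exceeded 0.1. Under the block CLDN3 passed in the untreated knockdown (adjusted p = 0.0115), at 48 h in scramble cells (0.00827) and at 48 h against 24 h in scramble cells (0.0131), CLDN1 in the knockdown at 48 h (0.0377), and in scramble cells CLDN12 at 24 h (0.0415) and TJP1 at 48 h (0.0421). The cause of these differences was not tested. CLDN7 had the fewest counts of the 9 genes, 12 to 132 per library.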

Other observations

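Transcription factors that govern epithelial and mesenchymal genes were read beside the junction genes at 48 h of 5-FU, and 16 of 19 were tested. In shATF4 cells 7 were higher and 5 lower (median log2 change -0.00), and in scramble cells 9 were higher and 4 lower (median 0.41), against 58.3% and 60.7% of all genes called in either direction. GRHL3, a grainyhead factor of epithelial barriers, had 3.37 CPM treated and 0.637 CPM untreated in shATF4 cells (2.41 ± 0.40, adjusted p = 2.91e-05) and 6.53 CPM treated and 0.330 CPM untreated in scramble cells (4.24 ± 0.41, adjusted p = 1.85e-08). The repressor of epithelial genes SNAI2 rose in shATF4 cells (0.77 ± 0.25, adjusted p = 0.011) and in scramble cells (1.20 ± 0.25, adjusted p = 0.000373), and its shATF4 call was lost without shATF4 untreated replicate 2 (adjusted p = 0.0684) or 48 h replicate 1 (0.118). The epithelial factor ELF3 rose in both (0.61 ± 0.09, adjusted p = 4.9e-06 in shATF4, and 1.06 ± 0.09, adjusted p = 1.81e-09 in scramble cells), as did the intestinal factor CDX2 (1.30 ± 0.13, adjusted p = 4.43e-08 in shATF4, and 0.47 ± 0.14, adjusted p = 0.00673 in scramble cells). The interaction at 48 h called 2 of the 16, against 2.74% of all genes, and they are named for it after their values were seen. They were CDX2 (0.83 ± 0.20, adjusted p = 0.0223) and EHF, an epithelial factor of the ETS family (-1.12 ± 0.13, adjusted p = 7.7e-05). For EHF, this difference between the lines does not say whether it fell in either line. The EHF call was kept in all 23 alternatives. The CDX2 call was lost when any 1 of 6 libraries was left out, with an adjusted p up to 0.105. In untreated cells EHF had 122 CPM in shATF4 and 88.2 CPM in scramble cells (0.47 ± 0.08, adjusted p = 0.00202). Adjusted p-values are from edgeR's quasi-likelihood test.

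The authors' deposited table holds 63 changes of the 9 genes in 7 comparisons. In 18 of them both it and the test used here passed 0.05 and in 38 neither did, 4 passed here only and 3 in the authors' deposited table only, and the log2 changes differed by at most 0.0238.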
